A study of Mus musculus with 30 samples.

Results

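The data describe 9 immune genes in samples of mouse retinal pigment epithelium (RPE), the pigmented cell layer between the photoreceptors and the choroid. They are Cd74, H2-Aa, H2-Ab1 and H2-Eb1 of antigen presentation by major histocompatibility complex (MHC) class II, and Tyrobp, Lyz2, Cd68, Csf1r and Ptprc of macrophages and other leukocytes. They were taken by symbol from a table of 51904 genes, and all 9 were present. Sequencing was of total RNA from clumps of RPE pulled off the choroid, taken from 30 C57BL/6 mice, all wild type, male and 10 to 13 weeks old, with 1 eye used per mouse. The 6 groups are set by the zeitgeber time (ZT) of collection, counted in hours, with ZT0 as lights-on by convention. They are ZT0, ZT2, ZT4, ZT9, ZT14 and ZT19, with 5 mice each. The eyecups also held choroid and sclera when the RPE was taken off, and no cell type was sorted. The groups also differ in eye: all 5 eyes at ZT4 were left eyes. Left eyes numbered 3 at ZT0, 1 at ZT2, 2 at ZT9, 4 at ZT14 and 1 at ZT19.

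MHC class II molecules display fragments of engulfed proteins to CD4+ T cells. An alpha and a beta chain pair in the endoplasmic reticulum around the invariant chain CD74, which blocks the peptide groove until proteases such as cathepsin S remove it in endosomes. Macrophages, dendritic cells and B cells are the usual producers. Around the RPE, resident macrophages live in the choroid and microglia in the retina, and both depend on the receptor CSF1R. The comparison by time of day asks whether the levels of these genes follow the day-night cycle for which the samples were collected.

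Class II genes share a promoter layout in which an X box, bound by the RFX complex, lies a short way before a Y box, bound by NF-Y, and the coactivator CIITA assembles on both. Stretches upstream of the start sites of H2-Aa (chr17:34287852-34287919, minus strand) and H2-Eb1 (chr17:34305761-34305827, plus strand) are shown because these genes followed each other most closely across the samples. H2-Eb2 (chr17:34325528-34325594, plus strand) is shown as a relative that was near 0 in the same samples, and it was chosen after its values were seen. The sequences are RefSeq's for GRCm38.p6, 5′ to 3′. Capitals mark the X box core GCAACT, the Y box core CTGATTGG and, in H2-Aa, the cyclic AMP response element TGACGTCA.
H2-Aa: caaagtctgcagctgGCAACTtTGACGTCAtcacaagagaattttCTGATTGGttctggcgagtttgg
H2-Eb1: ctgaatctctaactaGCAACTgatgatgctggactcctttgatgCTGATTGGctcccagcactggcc
H2-Eb2: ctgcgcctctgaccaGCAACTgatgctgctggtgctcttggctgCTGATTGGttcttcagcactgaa

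Between the cores lie 24 bases in H2-Aa and 23 in H2-Eb1 and H2-Eb2. Letters were searched on both strands in the 250 bases before the start. Of 32851 such windows of the mouse table, 3.83% hold the Y box core, 9.01% the X box core, 1.55% the cyclic AMP response element and 0.341% both box cores. The Y box core overlaps none of the others in the stretches printed. H2-Eb2 was listed at 0 in 26 of 30 samples and reached at most 0.453 FPKM, while the median of H2-Eb1 was 58.8 FPKM. FPKM are fragment numbers scaled to the length of a transcript and the size of its library, so levels can be set side by side between genes. The core letters are thus present upstream of a gene with transcripts and of a neighbour with almost none.

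Depth came to 12.4 to 23.2 M reads (M: mega) per sample, an estimate from how finely low FPKM values are stepped. Between 16723 and 19374 genes were above 0 in 29 samples. ZT14 replicate 3 stood apart with 12754 genes above 0, and 557 genes with a median of 10 FPKM or more elsewhere were at 0 in it, where other samples had 1 to 23 of this kind. It was the highest of all 30 samples for H2-Ab1, Lyz2 and Cd68, so results that rest on it are given without it as well. Fewer cells of a type and less RNA per cell cannot be told apart in such bulk samples.

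All 9 genes were above 0 in all 30 samples and all passed the filter on low values. Lyz2 (lysozyme, secreted by macrophages) was the most abundant with a median of 288 FPKM, and its lowest and highest samples were 200.5 and 618 FPKM. Cd74 followed with a median of 115 FPKM (78.8 to 231), then H2-Aa with 67.6 (28.0 to 134), H2-Ab1 with 65.5 (31.2 to 203), Tyrobp with 63.2 (22.6 to 139) and H2-Eb1 with 58.8 (31.1 to 105). Csf1r had a median of 42.8 FPKM (16.2 to 69.4) and Cd68 31.9 FPKM (18.1 to 123). Ptprc, which encodes the leukocyte common antigen CD45, was the lowest with 3.26 FPKM (0.696 to 6.15). The 9 genes varied less between samples than most: their SDs of log2(FPKM + 1) were at percentiles 15.9 to 43.6 among the 16741 genes tested.

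No gene of the 9 passed a test for time of day. In the 24 h cosine fit 0 of 9 passed, where 0.108% of all tested genes did. For any difference among the 6 time points 0 of 9 passed, against 0.0717% of all genes, and for the mean of the day times ZT2, ZT4 and ZT9 minus the mean of the night times ZT14 and ZT19 it was 0 of 9, against 0.0299%. In the 15 pairs of time points 0 of 9 passed in any pair, against 0.155% of all genes in at least 1 pair. All calls use limma on log2(FPKM + 1) with a threshold of 0.05 on p adjusted over all tested genes. At an unadjusted p under 0.05 the rhythm fit gave 1 of the 9 (Tyrobp; 8.76% of all genes), the test for any difference 1 (Lyz2; 8.67%), and day against night 2 (Lyz2 and Cd68, both lower by day; 10.5%).

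The sizes can be read beside all genes. The amplitude is how far the fitted curve rises above its mean. Its median over the 9 was 0.18 on the log2 scale, and the median of all tested genes was 0.22. Time points held between 12.3% (Ptprc) and 42.0% (Lyz2) of a gene's variance, beside a median of 17.7% over all genes and 17.2% that 6 groups of 5 hold on average without any difference. Lyz2 and Tyrobp, at 32.4%, stood highest of the 9. The highest mean of a time point was 1.41-fold (Cd74) to 2.16-fold (Cd68) the lowest. The spread between mice set how small a difference could be seen. For the 9 genes the SE of a difference between 2 time points was 0.22 (Lyz2) to 0.38 (Ptprc) on the log2 scale. Over all tested genes its median was 0.39.

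**Figure D1:**
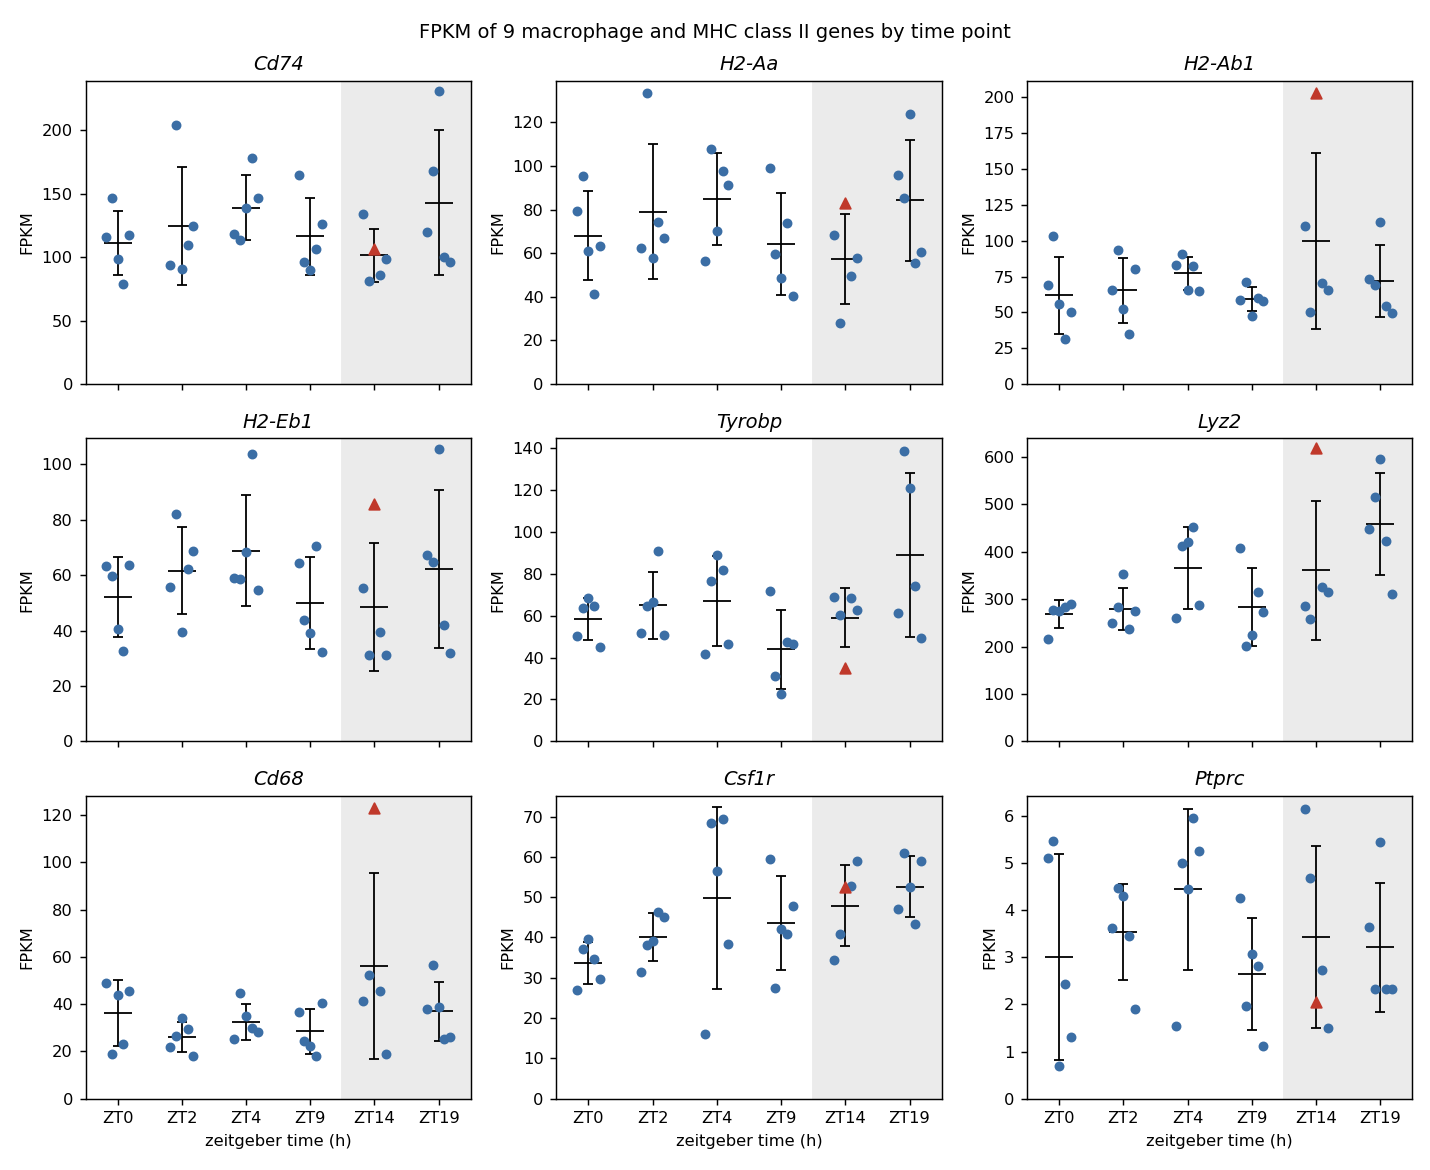
FPKM (linear axis from 0) of each of the 9 genes against zeitgeber time in hours, 1 point per mouse, with the mean and SD of 5 mice as a bar; the red triangle is ZT14 replicate 3, and the grey band is the dark phase by convention. The ranges of time points overlap widely, while all 5 ZT19 samples lie above all 5 ZT0 samples for Lyz2 and Csf1r.

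The invariant chain gene Cd74 (ENSMUSG00000024610, chromosome 18, start 60803848, end 60812652, plus strand, in mm10 by GENCODE M21) had 116, 147, 98.2, 78.8 and 117 FPKM in the 5 samples of ZT0. At ZT14 the values were 134, 81.3, 107, 85.9 and 98.4 FPKM, and at ZT19 they were 119.5, 168, 231, 100.2 and 96.5 FPKM. The 2 time points with the lowest and highest mean, ZT14 with 101 ± 21.0 and ZT19 with 143 ± 56.9 FPKM (mean ± SD, n = 5), overlapped. At ZT19 replicates 2 and 3 were high and the other 3 samples lay within the range of ZT14. The amplitude was 0.10 ± 0.10 (estimate ± SE, n = 30), with adjusted p = 0.902 for the rhythm and 0.83 for any difference (limma).

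H2-Aa (ENSMUSG00000036594, chromosome 17, start 34282744, end 34287823, minus strand) encodes the alpha chain of the class II molecule I-A. Its samples gave 79.5, 95.5, 61.0, 41.2 and 63.4 FPKM at ZT0, 56.2, 108, 70.2, 97.9 and 91.2 at ZT4, 68.2, 28.0, 82.9, 49.7 and 57.9 at ZT14, and 95.7, 85.5, 124, 55.7 and 60.8 at ZT19. Means ranged from 57.3 ± 20.5 FPKM at ZT14 to 84.7 ± 21.1 at ZT4 (n = 5), and these groups overlapped. H2-Eb1 (ENSMUSG00000060586, chromosome 17, start 34305867, end 34316674, plus strand), the beta chain of I-E, had the same order of the 6 means, from 48.6 ± 23 FPKM at ZT14 to 68.8 ± 20.1 at ZT4 (n = 5). In H2-Eb1 too every pair of neighbours in this order overlapped. Amplitudes were 0.20 ± 0.12 for H2-Aa and 0.18 ± 0.12 for H2-Eb1 (estimate ± SE, n = 30), with adjusted p = 0.734 and 0.786 (limma). Without ZT14 replicate 3 the ZT14 means were 51.0 ± 17.0 FPKM for H2-Aa and 39.3 ± 11.5 for H2-Eb1 (n = 4). The amplitudes were then 0.24 and 0.25, with adjusted p = 0.743 and 0.721 (limma).

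C57BL/6 mice make no I-E protein, because the gene of its alpha chain carries a promoter deletion in this strain, and the H2-Eb1 transcript has no alpha partner there. That alpha chain gene, annotated as H2-Ea-ps, was listed at 0 in 29 of 30 samples, with 0.116 FPKM in the other. H2-Eb1 was close to its I-A neighbours in level. Its level was below that of H2-Aa in 24 of 30 samples, with a median ratio of H2-Aa to H2-Eb1 of 1.26 (0.903 to 1.90). Reads that H2-Eb1 and its relative H2-Eb2 could share were split by the authors' tool in a way that is not given in the sources used here.

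H2-Ab1 (ENSMUSG00000073421, chromosome 17, start 34257689, end 34269419, plus strand) encodes the beta chain of I-A. At ZT14 its samples gave 109.9, 50.5, 203, 70.6 and 65.4 FPKM, at ZT9 58.8, 71.0, 47.8, 60.2 and 58.2, and at ZT19 72.9, 69.2, 113, 54.4 and 49.7. The third of the ZT14 samples was the highest of all 30. ZT14 had the highest mean, 99.9 ± 61.6 FPKM, and ZT9 the lowest, 59.2 ± 8.25 (n = 5). Without ZT14 replicate 3 the ZT14 mean was 74.1 ± 25.3 FPKM (n = 4). The day minus night difference was -0.25 ± 0.20 with it (adjusted p = 0.692, limma) and -0.10 without it, and the amplitude went from 0.15 to 0.04.

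Among the genes of macrophages, Lyz2 (ENSMUSG00000069516, chromosome 10, start 117277331, end 117282321, minus strand) had the largest share of variance between time points, 42.0%. Its samples gave 216, 278, 276, 283 and 289 FPKM at ZT0, and 249.5, 283, 352.6, 236 and 275 at ZT2. They gave 259.7, 411.2, 421.3, 452.8 and 287 FPKM at ZT4, and 407.5, 200.5, 224, 315.4 and 273 at ZT9. At ZT14 the values were 286, 259, 618.1, 326.1 and 314.9 FPKM, and at ZT19 447.4, 515.4, 596.3, 422.3 and 310.3. Every ZT19 sample lay above every ZT0 sample, while ZT19 overlapped with the 4 other time points. Of the 9 genes, Lyz2 and Csf1r had no overlap between ZT19 and ZT0, and so did 4.85% of all tested genes.

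The means of Lyz2 were 268 ± 29.7 FPKM at ZT0 and 458 ± 107 at ZT19 (n = 5). The difference of 0.74 ± 0.22 on the log2 scale did not pass over all genes (adjusted p = 0.118, limma), nor did the day minus night difference of -0.38 ± 0.14 (adjusted p = 0.361) or the test for any difference (adjusted p = 0.451). Without ZT14 replicate 3 the day minus night difference was -0.27. The near-identical gene Lyz1 lies next to Lyz2, with a median of 2.74 FPKM, and reads of the 2 genes may have been exchanged in the authors' quantification.

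Csf1r (ENSMUSG00000024621, chromosome 18, start 61100598, end 61132149, plus strand) encodes the receptor for CSF1 and IL-34 that macrophages need to survive. Its samples gave 27.0, 37.0, 39.6, 34.8 and 29.7 FPKM at ZT0 and 47.1, 61.1, 52.5, 43.4 and 59.1 at ZT19. All 5 ZT19 samples were higher. The means were 33.6 ± 5.18 and 52.6 ± 7.54 FPKM (n = 5), the difference was 0.63 ± 0.27 and adjusted p was 0.297 (limma). At ZT4 the samples spread from 16.2 to 69.4 FPKM, the lowest and the highest of all 30.

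Other tissues in the samples moved with these 2 time points. The summed level of 12 surface epithelium markers (corneal and conjunctival genes such as Krt12) was 2193 to 3653 FPKM at ZT19 and 9422 to 18322 FPKM at ZT0. The sum of 13 RPE markers was 11806 to 15807 FPKM at ZT19 and 6179 to 10804 FPKM at ZT0. For 12 skeletal muscle markers it was 7094 to 27808 against 3490 to 6650 FPKM, and for 12 endothelium markers 487 to 933 against 332 to 488 FPKM. Their part in the levels of Lyz2 and Csf1r was not tested for this pair. With the RPE, stroma and endothelium scores as terms, the day minus night difference of Lyz2 was -0.25, beside -0.38 in the main fit, and neither passed. Surface epithelium and skeletal muscle scores were not among the terms.

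Tyrobp (ENSMUSG00000030579, chromosome 7, start 30413760, end 30417585, plus strand) encodes DAP12, the signalling adaptor of TREM2 and other myeloid receptors. Its samples gave 71.9, 31.1, 22.6, 47.5 and 46.3 FPKM at ZT9 and 61.3, 139, 121, 74.0 and 49.4 at ZT19. Replicates 2 and 3 of ZT19 were the highest of all 30. Replicates 1 and 5 of ZT19 lay within the range of ZT9, and replicate 4, at 74.0 FPKM, lay just above it. The means were 43.9 ± 18.8 and 88.9 ± 38.9 FPKM (n = 5), a difference of 1.00 ± 0.29 on the log2 scale with adjusted p = 0.309 (limma). Tyrobp had the largest amplitude of the 9 genes, 0.38 ± 0.14 with a fitted peak at ZT 20.6 ± 1.16 h (SE) and adjusted p = 0.533.

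Cd68 (ENSMUSG00000018774, chromosome 11, start 69664213, end 69666153, minus strand) encodes macrosialin, a lysosomal membrane protein abundant in macrophages. At ZT14 its samples gave 41.2, 52.2, 123, 45.7 and 19.0 FPKM, and at ZT2 21.7, 26.4, 34.2, 29.4 and 18.2. The ZT14 mean of 56.2 ± 39.3 FPKM was the highest and the ZT2 mean of 26 ± 6.27 the lowest (n = 5), and the groups overlapped through 1 low ZT14 sample. The day minus night difference was -0.53 ± 0.22 (adjusted p = 0.411, limma). Without ZT14 replicate 3 the ZT14 mean was 39.5 ± 14.4 FPKM (n = 4) and the difference was -0.36.

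Ptprc (ENSMUSG00000026395, chromosome 1, start 138062861, end 138175708, minus strand) had its highest sample 8.83-fold above its lowest, the widest such range of the 9 genes. The 5 samples of ZT0 gave 5.10, 5.47, 0.696, 2.44 and 1.31 FPKM, and those of ZT4 gave 1.55, 5.01, 4.44, 5.95 and 5.26. The means were 3.0 ± 2.18 at ZT0 and 4.44 ± 1.71 FPKM at ZT4, the highest, with 2.65 ± 1.18 at ZT9, the lowest (n = 5). The ranges of all 6 time points overlapped. The amplitude was 0.09 ± 0.15 and adjusted p for the rhythm was 0.96 (limma). Csf1r exceeded Ptprc in all 30 samples, with a median ratio of 13.7.

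**Figure D2:**
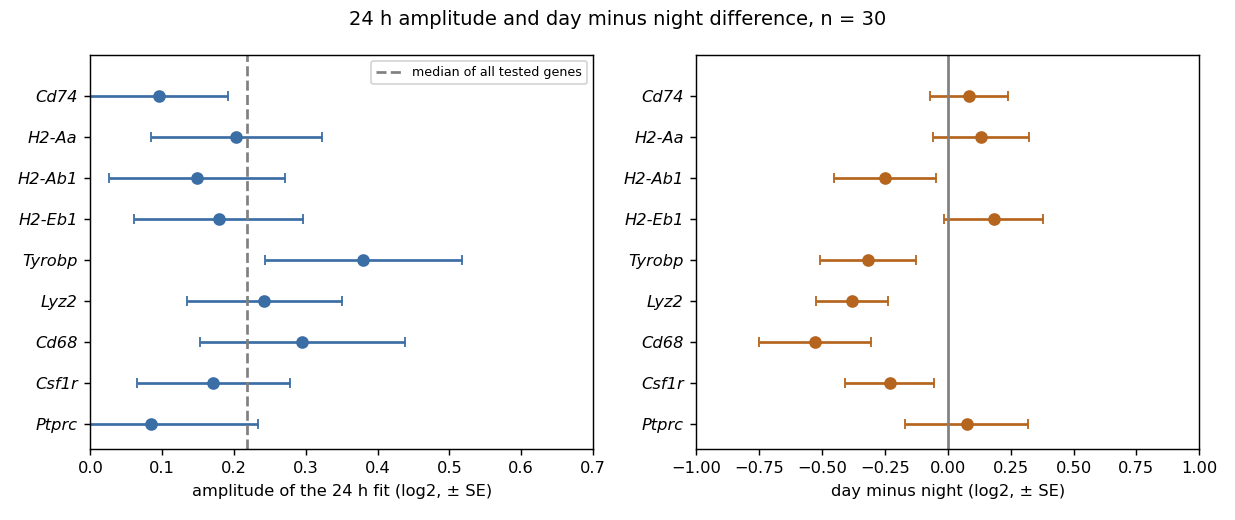
Left, amplitude of the 24 h fit on the log2 scale with its SE (n = 30), and the median of all tested genes, 0.22, as a dashed line; right, day minus night difference on the log2 scale with its SE. Tyrobp has the largest amplitude, 0.38 ± 0.14, and Cd68 the difference farthest from 0, -0.53 ± 0.22, and none of these passed over all genes.

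While time of day gave no call, the class II genes varied together from mouse to mouse. Across the 30 samples H2-Aa and H2-Eb1 had a Pearson r of 0.81 (Spearman rho = 0.79), Cd74 and H2-Aa 0.78 (rho = 0.76), and Cd74 and H2-Eb1 0.75 (rho = 0.70). Each had a permutation p of 1e-05, the smallest that 100000 resamples can give, and an adjusted p of 0.00012 over the 36 pairs of the 9 genes. Ordered by r among all 16741 tested genes, the closest partner of H2-Aa was H2-Eb1 and the next Cd74, the closest of H2-Eb1 was H2-Aa and the next Cd74, and the closest of Cd74 was H2-Aa and the next H2-Eb1. The 3 genes thus named each other first. For comparison, 0.341% of tested genes had an r above 0.5 with Cd74, 0.203% with H2-Aa and 0.364% with H2-Eb1.

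The values of r were computed again on parts of the data. Without the 2 samples farthest from the median of the first gene, r was 0.79 for H2-Aa and H2-Eb1, 0.70 for Cd74 and H2-Aa, and 0.68 for Cd74 and H2-Eb1. On deviations from the time point means, r was 0.78, 0.74 and 0.72. In the 16 left eyes r was 0.77, 0.82 and 0.82, and in the 14 right eyes 0.87, 0.75 and 0.67. The samples at the ends were the same for the 3 genes in part: ZT19 replicate 3 had 231 FPKM of Cd74, 124 of H2-Aa and 105 of H2-Eb1, and ZT14 replicate 2 had 81.3, 28.0 and 31.1 FPKM.

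H2-Ab1 also passed with each of the other 3 class II genes. Its r was 0.59 with H2-Eb1 (rho = 0.58, adjusted p = 0.00482, permutation test), 0.54 with H2-Aa (rho = 0.58, adjusted p = 0.0129) and 0.48 with Cd74 (rho = 0.57, adjusted p = 0.0275). Without the 2 samples farthest from the median of H2-Ab1, its r with H2-Eb1 was 0.51. Without the 2 farthest from the median of H2-Aa, r with H2-Aa was 0.52. Without the 2 farthest from the median of Cd74, r with Cd74 was 0.38. On deviations from the time point means, r with H2-Eb1, H2-Aa and Cd74 was 0.71, 0.70 and 0.59. H2-Ab1 stood in place 10 of the tested genes ordered by r with H2-Eb1, in place 14 for H2-Aa and in place 89 for Cd74. In the order by r with H2-Ab1 itself, H2-Eb1 stood in place 40, H2-Aa in place 107 and Cd74 in place 299. Of the tested genes, 1.24% had an r above 0.5 with H2-Ab1. Without ZT14 replicate 3 its r with Cd74 was 0.63, and without ZT19 replicate 3 it was 0.41 and did not pass. Within the 16 left eyes its r with Cd74, H2-Aa and H2-Eb1 was 0.57, 0.59 and 0.47, and within the 14 right eyes 0.46, 0.57 and 0.68.

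Within a sample Cd74 mostly stood above the chain genes, while the order among the chain genes was less fixed. H2-Aa exceeded H2-Ab1 in 19 of 30 samples, H2-Ab1 exceeded H2-Eb1 in 23, and H2-Aa exceeded H2-Eb1 in 24. Cd74 exceeded H2-Aa in all 30 samples, with a median ratio of 1.68 and a range of 1.05 to 3.13, and it exceeded H2-Eb1 in all 30, with a median of 2.24 (1.24 to 3.92). The alpha and beta chain genes of I-A, H2-Aa and H2-Ab1, had a median ratio of 1.09, with quartiles of 0.851 and 1.23. The ratio was lowest, 0.409, in ZT14 replicate 3 and highest, 2.11, in ZT2 replicate 4. Cd74 exceeded H2-Ab1 in 29 of 30 samples, and ZT14 replicate 3 was the exception at a ratio of 0.526.

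**Figure D3:**
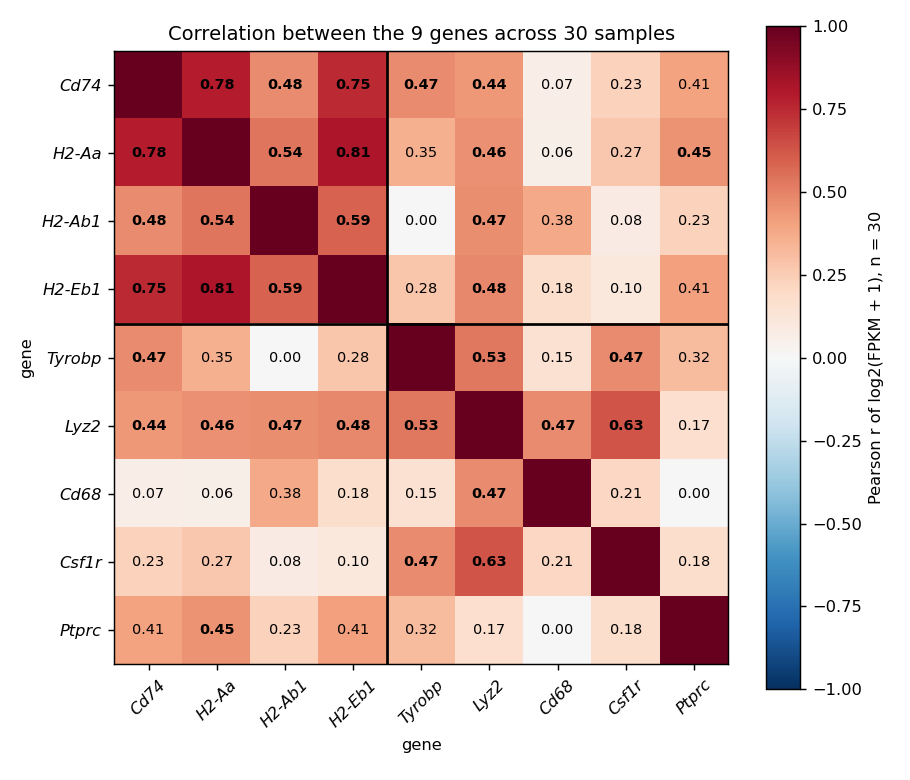
Pearson r of log2(FPKM + 1) across 30 samples for all 36 pairs of the 9 genes, coloured from -1 to 1; bold values passed at an adjusted p of 0.05, and lines divide the class II genes from the others. The class II block holds values of 0.48 to 0.81, above most of the other blocks.

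Of the 36 pairs 16 passed: 6 of 6 among the class II genes (median r = 0.67), 4 of 10 among the 5 other genes (median 0.26) and 6 of 20 between the groups (median 0.32). The lowest r that passed was 0.44, and 3.11% of the values of r between a gene of the 9 and the other tested genes reached it. Lyz2 passed with each of the 4 class II genes and took part in 3 of the 4 pairs among the others. By Spearman rho, none of its 4 pairs with class II genes passed (adjusted p = 0.059 to 0.193, permutation test). By that measure 1 of the 20 pairs between the groups passed, and 3 of the 10 among the 5 other genes. Lyz2 and Csf1r had the highest r of the macrophage genes, 0.63 (rho = 0.66, adjusted p = 0.0018, permutation test), with 0.73 in left and 0.62 in right eyes. Tyrobp and Lyz2 had 0.53 (rho = 0.49, adjusted p = 0.0129), with 0.80 in left and 0.31 in right eyes, and 0.74 without ZT14 replicate 3, a right eye. Tyrobp and Csf1r had 0.47 (rho = 0.50, adjusted p = 0.0275), with 0.56 in left and 0.32 in right eyes. Without the 2 samples farthest from the median of the first gene, the 3 values were 0.66, 0.41 and 0.50. Without ZT19 replicate 3 they were 0.64, 0.45 and 0.46, and the 2 pairs with Tyrobp did not pass (adjusted p = 0.0575 for each, permutation test).

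For 3 pairs with Cd68 or H2-Ab1, leaving out ZT14 replicate 3 lowered r. Lyz2 and Cd68 had an r of 0.47 (rho = 0.31, adjusted p = 0.0275, permutation test), 0.30 without that sample, and 0.17 in left against 0.70 in right eyes. H2-Ab1 and Lyz2 had 0.47 (rho = 0.30, adjusted p = 0.0275) and 0.30 without it. Neither passed without it. H2-Ab1 and Cd68, at 0.38, did not pass (adjusted p = 0.0755), and had 0.05 without it. ZT19 replicate 3 bore on the pairs between the groups: without it, 5 of 6 class II pairs, 2 of the 10 macrophage pairs and 0 of 20 between the groups passed.

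**Figure D4:**
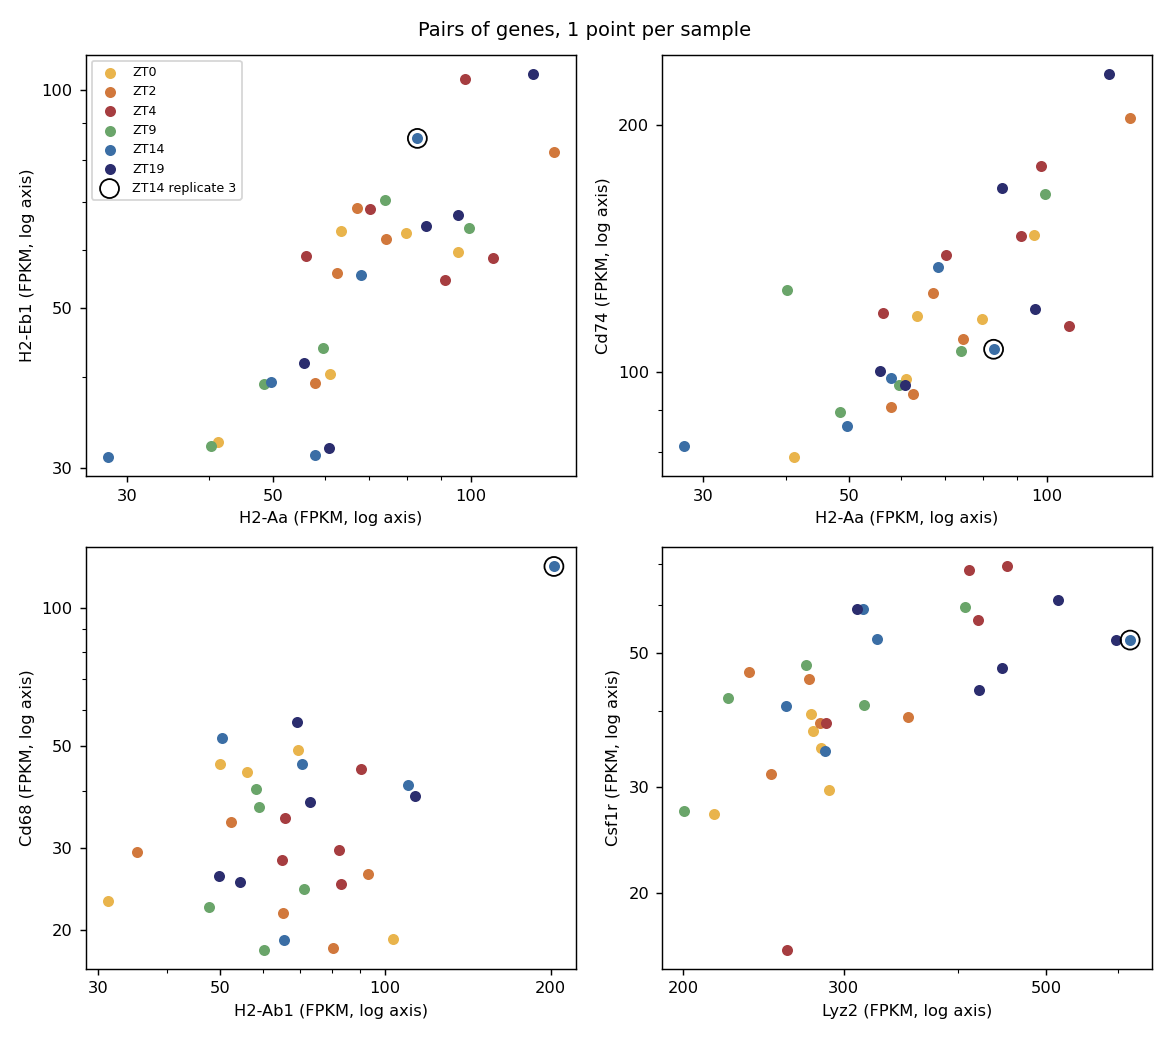
FPKM of 4 pairs of genes on log axes, 1 point per sample, coloured by zeitgeber time, with ZT14 replicate 3 circled. Over all 30 samples H2-Aa has an r of 0.81 with H2-Eb1 and 0.78 with Cd74, while H2-Ab1 and Cd68, with an r of 0.38, have 0.05 without the circled sample.

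The other genes of the class II pathway were measured at very different levels, and none passed a test for time of day. Of 22 such genes outside the 9, 20 were tested. Their median amplitude was 0.22, as for all tested genes, and 0 passed the rhythm, any-difference, day-night or pair tests, with 0, 1 and 0 at an unadjusted p under 0.05 in the first 3. Ctss, the cathepsin that trims the invariant chain, was the most abundant with a median of 111 FPKM (49.8 to 198), and H2-Ea-ps, above, was the lowest. The transactivator Ciita had a median of 0.614 FPKM and was listed at 0 in 3 samples, and H2-DMa and H2-DMb1, the chains of the peptide exchanger, had 6.16 and 9.34 FPKM. The last 3 genes were chosen after their values were seen.

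Of 30 markers of macrophages and microglia, all were tested and none passed a test for time of day. Their median amplitude was 0.30, and the lowest median level was 0.966 FPKM, of Sall1, a microglial transcription factor. At an unadjusted p under 0.05 there were 6 markers in the rhythm fit (8.76% of all genes), 4 in the test for any difference (8.67%) and 8 in day against night (10.5%), 7 of these with lower values by day. In the same contrast and at the same level, 6 of 12 skeletal muscle markers had lower and 6 of 12 surface epithelium markers higher values by day, and their part in the macrophage markers was not tested. Among the 7 macrophage markers were the genes of the complement protein C1q, named after their values were seen: C1qa (day minus night -0.45 ± 0.19), C1qb (-0.41 ± 0.16) and C1qc (-0.51 ± 0.18), with adjusted p = 0.408, 0.37 and 0.351 (limma). The sum of the 30 markers was 510 to 1107 FPKM over the samples.

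Genes around the receptors gave no call either, and those named were chosen after their values were seen. Of 13 genes of CSF1R ligands and signalling, 13 were tested and 0 passed any of the tests; the ligands Csf1 and Il34 had similar medians, 12.5 FPKM each. Of 16 TYROBP-coupled receptors and kinases, 11 were tested and 0 passed; Trem2, the receptor that signals through DAP12, had a median of 16.7 FPKM, and Fcer1g, a related adaptor, 23.8 FPKM. Of 14 genes of MHC class I presentation, 0 passed in the rhythm fit, with 4 at an unadjusted p under 0.05. Of 17 interferon gamma response genes, 0 passed, with 2 at that level. Over all tested genes the shares were 0.108% and 8.76%.

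Markers of dendritic cells, lymphocytes and neutrophils were in part at a median of 0, and those named were chosen after their values were seen. Of 10 dendritic cell markers 5 were tested, and Flt3, Xcr1, Clec9a, Ccr7 and Cd207 had a median of 0. Itgax, Zbtb46, Batf3 and Cd209a had medians of 1.38, 2.37, 1.84 and 0.412 FPKM. The sum of that list was 65.7 to 421 FPKM, with a median of 103 FPKM for Cd24a, which epithelial cells also express. Of 8 B cell markers 4 were tested, with Cd79a, Ms4a1, Jchain and Pax5 among those at a median of 0. Ighm, Igkc and Cd79b had medians of 6.43, 4.76 and 0.525 FPKM. The sum of the B cell list was 7.03 to 43.5 FPKM. Of 13 T and NK cell markers 11 were tested, with a sum of 7.17 to 139 FPKM. Of 10 neutrophil markers 4 were tested, and Elane, Mpo and Ngp were listed at 0 in all samples. S100a9 and Csf3r had medians of 3.34 and 1.61 FPKM, and S100a9 reached 72.5 FPKM in its highest sample. The 6 red cell markers summed to 281 to 2324 FPKM. None of these genes passed a test for time of day.

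Correlations across samples with marker lists of tissues and cell types are given as a description, with no test. Class II genes had r of 0.30 to 0.54 with the T and NK cell score (the mean log2 level of its markers). Their values were similar with macrophages and microglia, 0.25 to 0.55, with B cells, 0.17 to 0.50, and with red cells, 0.20 to 0.50. With dendritic cells they ran from 0.07 to 0.46. With the score of 20 other genes of the class II pathway, Cd74 had 0.56, H2-Aa 0.23, H2-Eb1 0.17 and H2-Ab1 -0.01. With the RPE score the class II genes had -0.06 to 0.13. With the macrophage and microglia score Tyrobp had 0.70, Lyz2 0.67, Csf1r 0.56, Ptprc 0.37 and Cd68 0.14. Ptprc had 0.57 with the T and NK cell score and 0.27 with the RPE score. Csf1r had 0.85 with the RPE score, and Lyz2 had 0.52. With endothelium the values were 0.71 for Csf1r, 0.68 for Tyrobp and 0.62 for Lyz2, and 0.16 to 0.52 for the class II genes. With stroma the class II genes had 0.20 to 0.41, and with skeletal muscle 0.26 to 0.41. Surface epithelium went the other way, with -0.84 for Lyz2, -0.76 for Csf1r and -0.52 for Tyrobp, and -0.41 to -0.24 for the class II genes. Cd68 stayed between -0.30 and 0.30 over the 13 lists plotted. The 30 points share library and tissue mix for both axes, and the differences between these values were not tested.

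**Figure D5:**
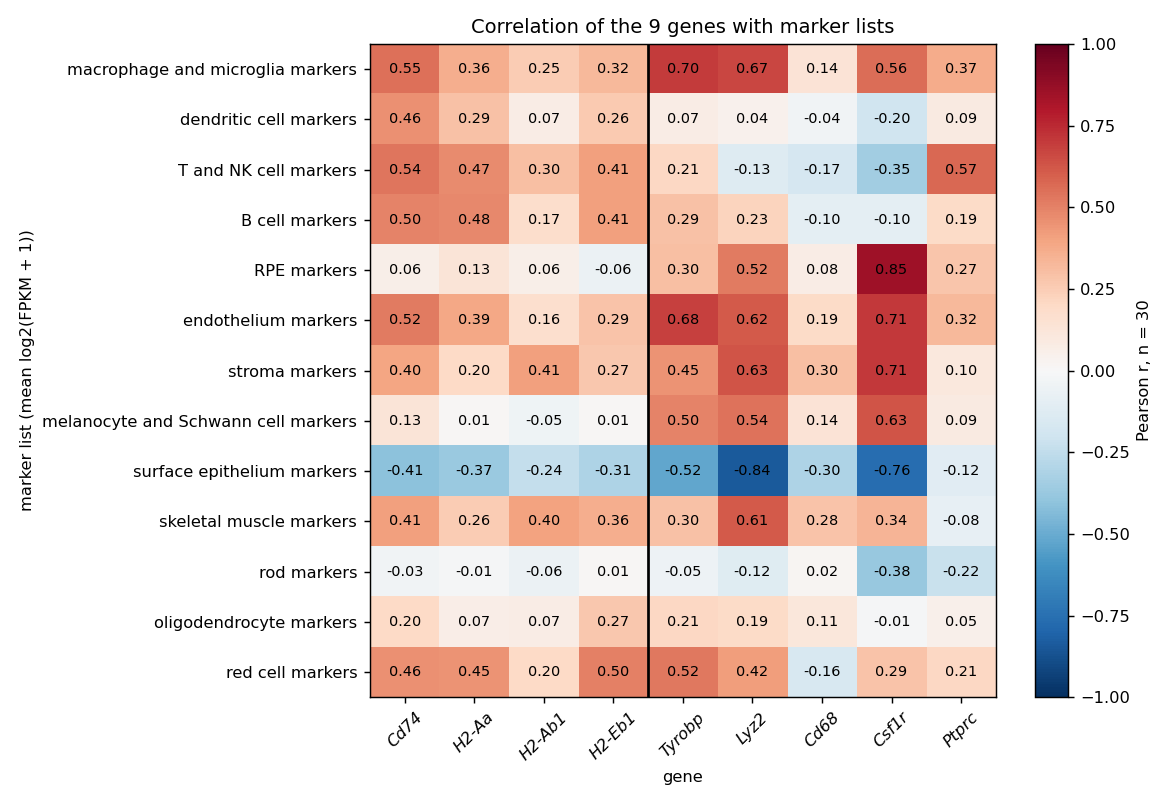
Pearson r, across 30 samples, of each of the 9 genes with the mean log2(FPKM + 1) of 13 marker lists, coloured from -1 to 1; a line divides the class II genes from the others. Lyz2 and Csf1r have values of -0.84 and -0.76 with surface epithelium, and Csf1r has 0.85 with RPE.

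The genes most like each group were looked up among all 16741 tested genes, by r over 30 samples, as a description. For the mean of the 4 class II genes the 8 closest genes outside the 9 were Ecscr (r = 0.65), Cox7a1 (0.63), Chchd4 (0.63), B2m (0.63), Irgm2 (0.63), Klhl40 (0.60), Osbpl7 (0.60) and Cdc34 (0.59). B2m, the light chain of MHC class I, had a median of 688 FPKM and Irgm2, an interferon-inducible GTPase, 9.17 FPKM. For the mean of Tyrobp, Lyz2, Cd68, Csf1r and Ptprc they were Ftl1 (0.79), Emcn (0.78), Selenop (0.77), Rgs5 (0.76), Ctss (0.75), Eng (0.75), Lgi4 (0.74) and Tmem220 (0.74). Ftl1 encodes the ferritin light chain, and Emcn and Eng are endothelial surface proteins, while Rgs5 marks pericytes. The lists share no gene.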

How the data were processed

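Reads were single, 75 bp, per the labels' protocols. STAR, Cufflinks, DESeq2 and mm10 are named in the submitters' processing notes, with no version or role. The authors deposited 1 FPKM value per gene and sample, with commas as decimal marks, a unit known from the name of the table; counts were not used here. Genes with at least 1 FPKM in at least 5 samples (16741) were analysed as log2(FPKM + 1), which understates changes of low genes, with limma 3.58.1 (R 4.3.3), a mean-variance trend and Benjamini-Hochberg adjustment. Correlations used permutations in Python 3.11.15 with scipy 1.17.1, all two-sided. The fits were tested on simulated data. Mice were numbered in accession order, so numbers pair nothing. The precision of a value is limited by depth, estimated at 12.4 to 23.2 M reads.

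The 9 genes and the lists were chosen with earlier results of these data known. The text names all 9, the list genes at the lowest and highest medians or past a test, and the 8 genes closest to each group mean; others are marked as chosen after their values were seen. Some list genes are not reported here. Alternatives covered pseudocount, filter, scaling, variance model, eye, animal number, tissue scores and each sample left out. RNA batches are not given in the sources used here.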

Additional observations from a re-analysis of the deposited data

Results flagged for a closer look

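Of 54 groups of 5 samples (9 genes at 6 time points), 4 held a sample far from the 4 others of its time point, by Dixon's criterion on the log2 scale with a critical value of 0.71; chance alone gives about 1 in 20 groups. Lyz2 at ZT14 was highest in replicate 3, at 618.1 FPKM, with the others at 259 to 326.1 FPKM. Tyrobp at ZT14 was lowest in the same replicate, at 34.82 FPKM, with the others at 60.4 to 68.8 FPKM. That sample is the one with 12754 genes above 0, and the part of this in both values was not tested. Lyz2 at ZT0 was lowest in replicate 1, at 216 FPKM, with the others at 276 to 289 FPKM. Ptprc at ZT4 was lowest in replicate 1, at 1.547 FPKM, with the others at 4.44 to 5.95 FPKM.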

How the results depend on the processing

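None of the 9 genes passed the rhythm, any-difference or day-night test in any of 39 alternatives (30 of them leaving out 1 sample), or a pair of time points in any of 4; Ptprc did not enter under the stricter filter. The lowest adjusted p in them was 0.39 for the rhythm (Tyrobp), 0.267 for any difference and 0.22 for day against night (both Lyz2). Apart from Csf1r, signs changed for values near 0. The day minus night difference of Csf1r was -0.23 ± 0.18 in the main fit (adjusted p = 0.662, limma). With the RPE, stroma and endothelium scores as terms it was 0.0323. That of Ptprc was -0.0354 with animal number runs as a term and ran from -0.0126 to 0.176 with samples left out. The r of Cd68 and Ptprc was -0.012 with a pseudocount of 0.1, -0.0115 under median-of-ratios scaling, and -0.0592 to 0.109 with samples left out. That of H2-Ab1 and Tyrobp was -0.00015 with a pseudocount of 5, -0.0208 under that scaling, -0.0991 on deviations from time point means, and -0.107 to 0.198 with samples left out. H2-Ab1 and Csf1r had -0.0489 on those deviations. H2-Eb1 and Csf1r ran from -0.00245 to 0.17 and H2-Aa and Cd68 from -0.00347 to 0.188 with samples left out. By Spearman rho 10 pairs passed, and with samples left out 7 (without ZT19 replicate 3) to 20 (without ZT14 replicate 2), against 16 of 36 in all samples; the cause was not tested. The 6 class II pairs all passed under each of the 5 other settings. Across samples, r of a gene's log2 level with estimated reads was -0.19 (H2-Aa) to 0.41 (Csf1r). With the number of genes above 0 it was -0.60 (Cd68) and -0.59 (H2-Ab1) to 0.21 (Tyrobp). With the log2 of a sample's total FPKM it was -0.21 (Csf1r) to 0.61 (H2-Eb1). For the other class II genes that r was 0.40 (H2-Aa), 0.41 (Cd74) and 0.56 (H2-Ab1). The part of these library properties in the correlations between the genes was not tested.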
